A study of Mus musculus with 6 samples.

Results

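Cell cycle and DNA replication genes were examined in the aortas of 3 DKO mice, which lack both Adora1, the gene of the adenosine A1 receptor, and Apoe, and of 3 ApoE-KO mice, which lack Apoe alone. All mice were 20 weeks old and on a C57BL/6 background, and the missing Apoe, a state that leads to atherosclerosis, was common to both groups. The series text instead calls the comparison group Adora1 knockouts. The title, source and genotype label of every array name Apoe, and those labels were followed. The set was fixed by name, as 35 genes of the cell cycle and of DNA replication, each taken from the probe set that names that gene alone and has the highest mean over the 6 arrays. Of these, 33 had such a probe set, of 19752 genes that the table represents in this way. Ccnb1 had none in the table used here. Cdkn1a, the p21 inhibitor of cyclin-dependent kinases, lies on 1 probe set that names several genes, and it is not reported.

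A dividing cell passes through G1, copies its DNA in S phase, and separates the chromosomes in mitosis, driven by cyclins that activate cyclin-dependent kinases. Genes for replication are switched on by E2F factors in late G1, and genes for mitosis by a later programme that acts through MYB, FOXM1 and the cell cycle homology region of their promoters. In a healthy adult artery most cells are quiescent, and smooth muscle cells, endothelial cells and macrophages can divide in atherosclerotic plaques. The comparison bears on whether this proliferation programme differs in the aorta when Adora1 is missing as well as Apoe.

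All values are log2 intensities of whole-aorta RNA, so a difference of 1 is a doubling, and fewer cells of a type cannot be told apart from less RNA per cell. Smooth muscle markers such as Acta2 and Myh11 had mean levels of 12.93 to 13.07 in DKO and 12.82 to 13.02 in ApoE-KO arrays, as fits the labelled tissue. Adora1 is not analysed here, and Apoe did not separate the groups (DKO minus ApoE-KO -0.14, adjusted p = 0.935), with no wild-type array to set either against. The replicate 3 arrays of both groups stood apart: 5 of 5 lung epithelium markers were higher there than in every other array of the same group, with list means of 10.39 in DKO and 11.04 in ApoE-KO, against 6.73 to 6.75 in the other DKO and 6.81 to 6.86 in the other ApoE-KO arrays. The 8 macrophage markers had a mean of 8.70, 9.84 and 9.53 in DKO replicates 1 to 3, with replicate 1 far the lowest, and of 9.31 to 9.56 in ApoE-KO.

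None of the 33 cell cycle and replication genes passed the test between DKO and ApoE-KO aortas. Of the 33 genes 0 passed in limma at an adjusted p of 0.05 (smallest adjusted p = 0.861), where 0% of all 25254 probe sets did, and 1 of 33, Birc5, had an unadjusted p under 0.05, against 5.62% of all probe sets. With the arrays paired by replicate number, 0 of 33 passed (smallest adjusted p = 0.187), against 0.174% of all probe sets, and 7 of 33 had an unadjusted p under 0.05, against 16.2%. Group ranges did not overlap in 2 of 33 genes, against 12.0% of all probe sets. With any 1 array left out, 3 to 6 of the 33 did not overlap, beside 18.9% to 29.0% of all probe sets, since fewer arrays overlap less easily.

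The differences were small on both sides of 0. They ran from -0.23 for Ccnd1 and Birc5 to 0.30 for Nusap1, with a median of 0.038 over the 33 genes and of -0.0024 over all probe sets. The median was -0.0016 without DKO replicate 1 and -0.013 without ApoE-KO replicate 3, so its sign rested on single arrays. Mean levels were higher in DKO in 20 of 33 genes, against 49.3% of all probe sets, in 24 of 33 after renewed quantile normalization, and in 12 to 25 of 33 with 1 array left out. The median absolute difference was 0.060 over the 33 genes and 0.083 over all probe sets. In 29 of 33 genes the 95% interval lay inside a 1.5-fold change either way. The other 4 were Ccnd1, Pcna, Nusap1 and Prc1, and with the pairing all 33 intervals lay inside it. Only 13 of the 33 genes had a mean level above the 40th percentile of all probe sets. Birc5, Bub1, Nusap1 and Prc1 were not among them. How well intervals at such low levels bound a change in the RNA was not tested.

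**Figure D1:**
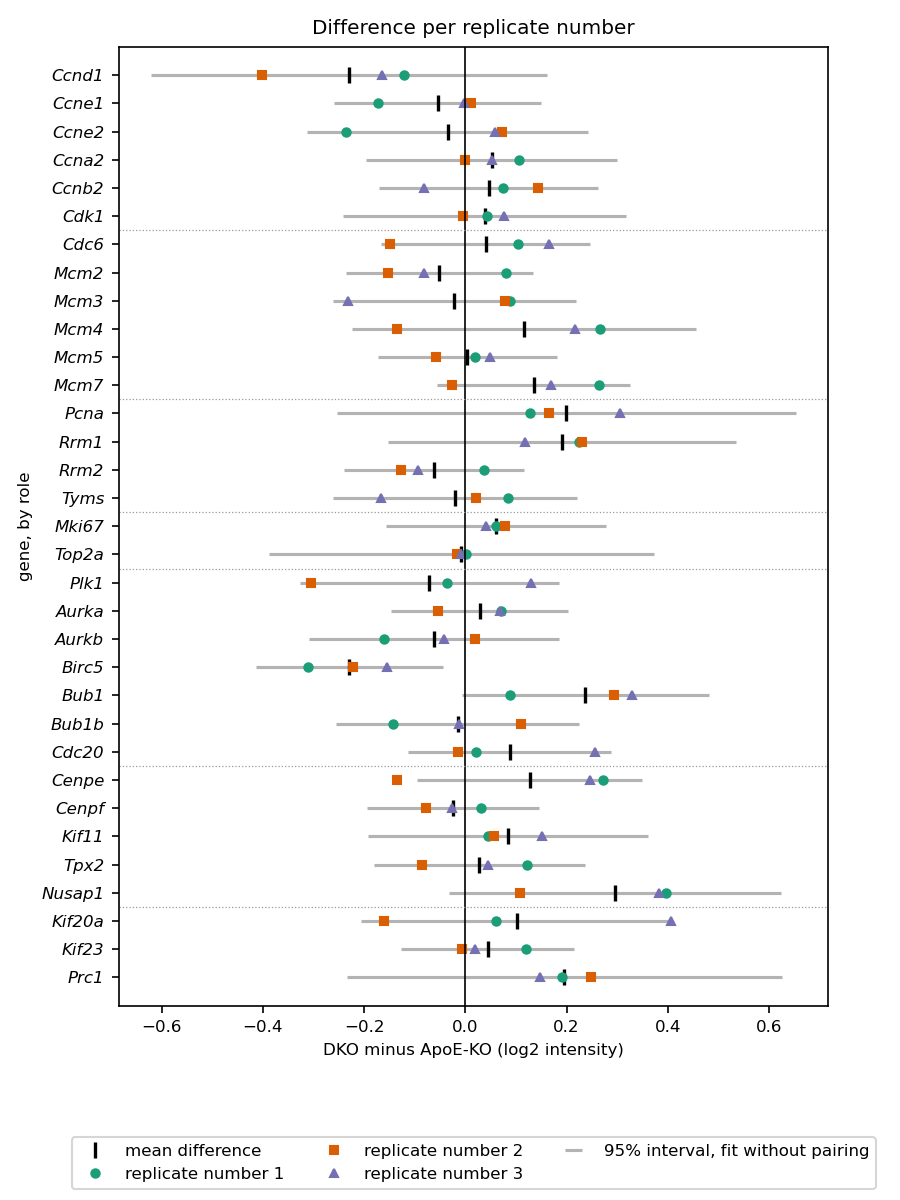
DKO minus ApoE-KO in log2 intensity (x axis) for the 33 genes grouped by role (y axis, dotted lines part the roles), with 1 symbol for each replicate number, a black tick at the mean and a grey 95% interval from the limma fit without pairing. Means lie between -0.23 and 0.30, and the Birc5 interval is the one that does not reach 0.

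Among the cyclins, Ccnd1, which encodes the G1 cyclin D1 that growth factors induce, had the largest difference. Its levels were 10.04, 10.26 and 10.45 in DKO replicates 1 to 3, against 10.16, 10.66 and 10.62 in ApoE-KO replicates 1 to 3. DKO was lower within each replicate number, by -0.12, -0.40 and -0.17, but the group ranges overlapped. The difference of -0.23 (95% interval -0.62 to 0.16) did not pass (limma, adjusted p = 0.885, and 0.201 with the pairing).

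Ccne1 encodes cyclin E1, which drives entry into S phase. It read 7.50, 7.43 and 7.48 in DKO and 7.67, 7.42 and 7.48 in ApoE-KO, and only ApoE-KO replicate 1 stood above the rest (difference -0.05, 95% interval -0.26 to 0.15, adjusted p = 0.950). The other cyclin genes, Ccne2, Ccna2 (cyclin A, of S and G2 phase) and Ccnb2 (a mitotic cyclin B), had differences of -0.03, 0.05 and 0.05. Cdk1, the kinase that the mitotic cyclins activate, read 7.52, 7.35 and 7.21 in DKO and 7.48, 7.36 and 7.13 in ApoE-KO, so arrays of the same number were within 0.08 of each other (difference 0.04, 95% interval -0.24 to 0.32, adjusted p = 0.975).

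Replication origins are licensed when Cdc6 helps to load the ring of MCM proteins that later unwinds the DNA. The 2 largest differences in this role were in Mcm7 and Mcm4, both helicase subunits. Mcm7 read 8.39, 8.25 and 8.33 in DKO, against 8.13, 8.28 and 8.16 in ApoE-KO, and the groups overlapped through DKO replicate 2 and ApoE-KO replicate 2 (difference 0.14, 95% interval -0.06 to 0.33, adjusted p = 0.866). Mcm4 read 8.82, 8.67 and 8.52 in DKO, against 8.56, 8.81 and 8.30 in ApoE-KO (difference 0.12, 95% interval -0.22 to 0.46, adjusted p = 0.935). For both genes DKO was higher within numbers 1 and 3 and lower within number 2. Cdc6, Mcm2, Mcm3 and Mcm5 had differences of 0.04, -0.05, -0.02 and 0.0036. Mcm5 varied little over all 6 arrays, with a range of 0.16.

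At the replication fork, Pcna encodes the sliding clamp that holds DNA polymerases on the template. It read 11.27, 11.02 and 10.78 in DKO, against 11.14, 10.86 and 10.48 in ApoE-KO. DKO was higher within each number, by 0.13, 0.17 and 0.31, while the group ranges overlapped widely (difference 0.20, 95% interval -0.25 to 0.65, adjusted p = 0.920 without and 0.187 with the pairing). A further probe set that names Pcna alone gave a difference of 0.19 with the same order of arrays, and whether the 2 probe sets read separate transcripts is not known.

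Rrm1, the large subunit of the ribonucleotide reductase that makes deoxynucleotides, behaved in the same way. It read 9.17, 9.00 and 8.71 in DKO and 8.95, 8.77 and 8.59 in ApoE-KO, with same-number differences of 0.22, 0.23 and 0.12 (difference 0.19, 95% interval -0.15 to 0.53, adjusted p = 0.891 without and 0.218 with the pairing). Rrm2, the small subunit whose level follows S phase, had a difference of -0.06, and Tyms, the thymidylate synthase, one of -0.02. The 2 reductase subunits thus had differences of opposite sign, and neither passed.

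Both standard markers of dividing cells were close between genotypes, at mean levels not above the 40th percentile of all probe sets. Mki67, which encodes the Ki-67 protein that coats mitotic chromosomes, read 7.43, 7.58 and 7.35 in DKO and 7.37, 7.50 and 7.31 in ApoE-KO (difference 0.06, 95% interval -0.16 to 0.28, adjusted p = 0.948). The order of the numbers was the same in both groups, with replicate 2 highest and replicate 3 lowest. Top2a, the topoisomerase that untangles sister chromosomes, read 6.999, 6.757 and 6.504 in DKO and 6.998, 6.773 and 6.512 in ApoE-KO. Its same-number differences were 0.00059, -0.016 and -0.0079, while its level ranged over 0.49 between numbers, and the fit gave -0.0077 (95% interval -0.39 to 0.37, adjusted p = 0.996, and 95% interval -0.17 to 0.16 with the pairing).

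The 2 genes without overlap between the groups both act at the centromere in mitosis, and they differed in opposite directions. Birc5 encodes survivin, a subunit of the chromosomal passenger complex that places the Aurora B kinase. It read 6.83, 6.81 and 6.98 in DKO, against 7.14, 7.03 and 7.14 in ApoE-KO, so every DKO array was lower (difference -0.23, 95% interval -0.41 to -0.04, unadjusted p = 0.0217, adjusted p = 0.861 in limma, and 0.211 with the pairing). Bub1, a kinase of the spindle assembly checkpoint, read 5.90, 6.12 and 5.89 in DKO, against 5.81, 5.82 and 5.56 in ApoE-KO, so every DKO array was higher (difference 0.24, 95% interval -0.01 to 0.48, adjusted p = 0.862, and 0.256 with the pairing). Leaving out any 1 array gave differences from -0.28 to -0.20 for Birc5 and from 0.15 to 0.28 for Bub1. Without overlap between the groups, the direction could not change in this way.

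Aurkb, the Aurora B kinase that survivin places, had a difference of -0.06, and Bub1b, a further checkpoint protein, one of -0.02. Plk1 and Aurka, kinases of mitotic entry and of the spindle poles, had differences of -0.07 and 0.03, and Cdc20, which activates the ubiquitin ligase that ends mitosis, had 0.09. Adjusted p-values of these 5 genes were between 0.921 and 0.993.

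Of the spindle genes, Nusap1, a microtubule-binding protein of the spindle, had the largest positive difference among the 33. It read 6.72, 6.94 and 6.95 in DKO, against 6.32, 6.84 and 6.57 in ApoE-KO, and DKO was higher within each number, by 0.40, 0.11 and 0.38. DKO replicate 1 lay below ApoE-KO replicate 2, so the groups overlapped (difference 0.30, 95% interval -0.03 to 0.62, adjusted p = 0.862 without and 0.189 with the pairing).

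Cenpe, the kinesin that moves chromosomes to the spindle equator, read 5.72, 5.49 and 5.70 in DKO and 5.44, 5.63 and 5.45 in ApoE-KO, with number 2 against the others (difference 0.13, 95% interval -0.09 to 0.35, adjusted p = 0.889). Cenpf, a kinetochore protein, Kif11, the motor that pushes the spindle poles apart, and Tpx2, which activates Aurora A on the spindle, had differences of -0.02, 0.08 and 0.03.

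Cytokinesis depends on the central spindle, which Prc1 bundles and on which the kinesins Kif20a and Kif23 move. Prc1 read 6.69, 6.35 and 6.12 in DKO, against 6.50, 6.11 and 5.97 in ApoE-KO. DKO was higher within each number, by 0.19, 0.25 and 0.15, with wide overlap of the groups (difference 0.20, 95% interval -0.23 to 0.63, adjusted p = 0.914 without and 0.272 with the pairing). Kif20a read 6.44, 6.26 and 6.37 in DKO and 6.37, 6.42 and 5.96 in ApoE-KO, where replicate 3 was lowest (difference 0.10, 95% interval -0.21 to 0.41, adjusted p = 0.936). Kif23 had a difference of 0.04.

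**Figure D2:**
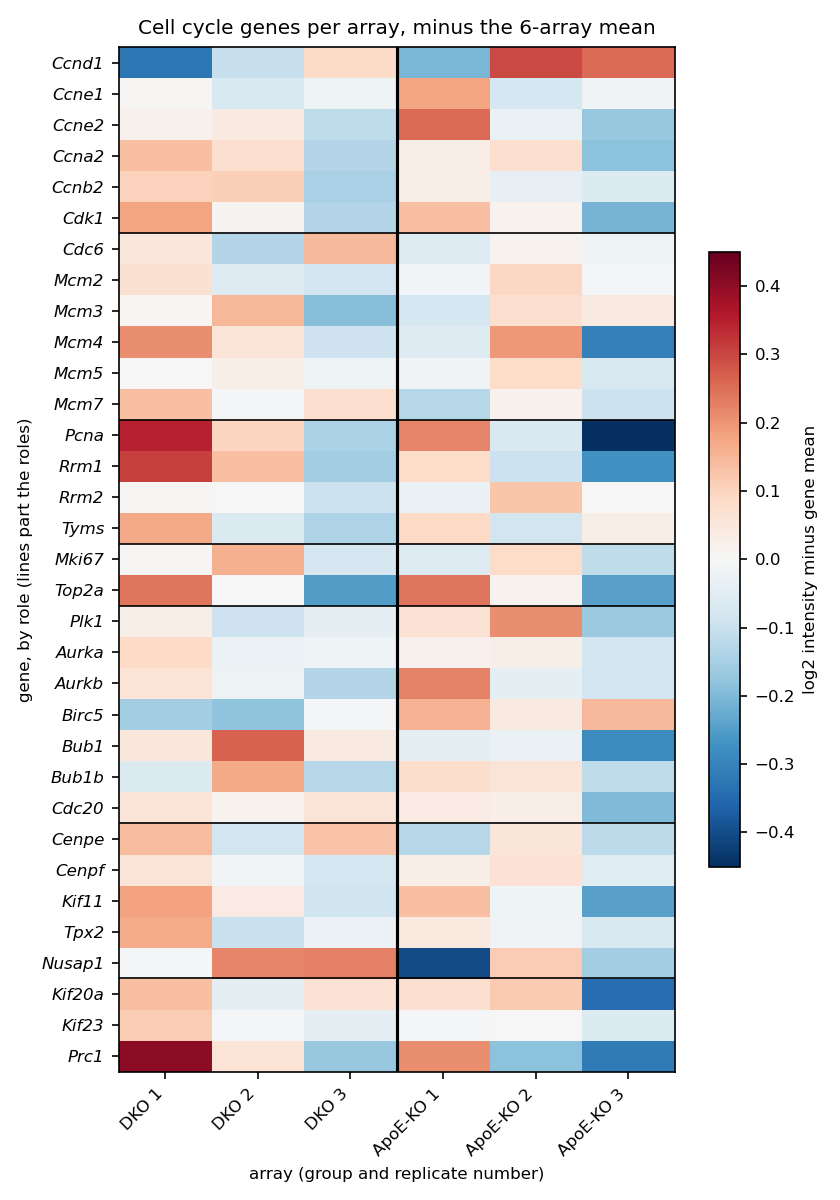
Log2 intensity of the 33 genes (rows, lines part the roles) in each array (columns, DKO left and ApoE-KO right), with each gene's mean over the 6 arrays subtracted; red is higher and blue lower. Replicate 3 of ApoE-KO is lowest on average, at -0.12, and replicate 1 of DKO highest, at 0.088.

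Across all 33 genes the same-number differences shared a sign in 9. In 7 of 33, namely Pcna, Rrm1, Mki67, Bub1, Kif11, Nusap1 and Prc1, DKO was higher within every number, against 21.2% of all probe sets. In 2 of 33, Ccnd1 and Birc5, DKO was lower within every number, against 19.1%. The median difference over the genes was 0.071 within number 1, -0.0057 within number 2 and 0.052 within number 3.

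The range of the 3 means per number exceeded the absolute group difference in 30 of 33 genes, beside 80.4% of all probe sets, but a range of 3 means tends to exceed a difference between 2 means by construction, so nothing is read from it. The mean level of the 33 genes was 7.51, 7.44 and 7.37 in DKO replicates 1 to 3, against 7.45, 7.45 and 7.30 in ApoE-KO, and replicate 3 was lowest in both groups.

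In 7 of 33 genes, Cdk1, Pcna, Rrm1, Top2a, Aurkb, Kif11 and Prc1, replicate 1 was highest and replicate 3 lowest in both groups, against 10.8% of all probe sets. The range of their number means was 0.25 to 0.58. Kif11 read 6.79, 6.65 and 6.52 in DKO and 6.75, 6.59 and 6.37 in ApoE-KO. Without the replicate 3 arrays, replicate 1 stood above replicate 2 in both groups in 12 of 33 genes, against 37.0% of all probe sets, a comparison added after seeing the data.

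Markers of other cell types also varied between numbers and genotypes. Endothelial markers averaged 10.16, 10.50 and 10.59 in DKO replicates 1 to 3 and 10.03, 10.44 and 10.63 in ApoE-KO, lowest in replicate 1, and the lung markers were high in replicate 3 alone. The 7 lymphocyte markers averaged 6.56, 6.86 and 7.04 in DKO and 6.73, 6.72 and 7.03 in ApoE-KO, highest in replicate 3 of both groups. The 6 adipocyte markers averaged 9.02, 9.82 and 9.39 in DKO and 9.55, 10.25 and 9.92 in ApoE-KO, an average lower in DKO within every number. Their median difference was -0.43, with 5 of the 6 lower in DKO and 1 higher, by 0.36. Of the lower ones 2, Retn and Cidec, passed with the pairing, and none of the 6 passed without it. The 5 erythroid precursor markers averaged 7.64, 8.05 and 8.09 in DKO and 7.54, 7.83 and 7.82 in ApoE-KO, higher in DKO within every number. Of these 5, 4 were higher and 1 lower in DKO (median 0.088), with Alas2 the largest at 0.83. Smooth muscle markers were on average also higher in DKO within every number. The 5 thymocyte markers averaged 6.65, 6.74 and 6.67 in DKO and 6.67, 6.81 and 6.60 in ApoE-KO. The part of all these cell types in the levels of the cell cycle genes was not tested.

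**Figure D3:**
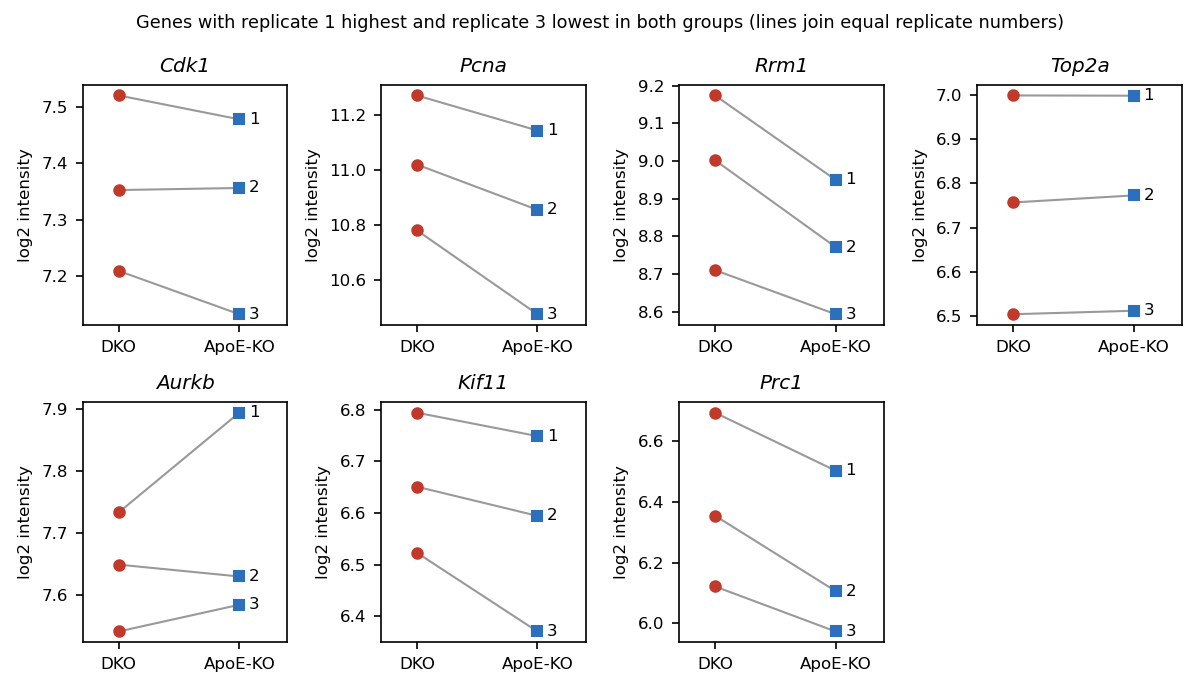
Log2 intensity (y axis) of the 7 genes with replicate 1 highest and replicate 3 lowest in both groups, DKO arrays as circles and ApoE-KO arrays as squares, with lines joining equal replicate numbers (written at the right). For Top2a the lines are nearly level, within 0.016, while the numbers lie up to 0.49 apart.

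Promoters of 4 mitotic genes in which replicate 1 was highest and replicate 3 lowest in both groups are shown because their windows hold the letters of the cell cycle homology region. Each line gives the 120 bases before the RefSeq transcript start in GRCm38.p6, 5′ to 3′ on the gene's strand. Capitals mark TTTGAA or its reverse complement TTCAAA, and the CCAAT box or its reverse complement ATTGG, which do not overlap here. Of the mitotic genes with such letters before the start, these had the widest range over the 6 arrays.
Prc1 (chr7:80294356-80294475, plus strand): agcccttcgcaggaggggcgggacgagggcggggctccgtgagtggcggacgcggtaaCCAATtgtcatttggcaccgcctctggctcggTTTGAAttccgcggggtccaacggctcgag
Top2a (chr11:99024190-99024309, minus strand): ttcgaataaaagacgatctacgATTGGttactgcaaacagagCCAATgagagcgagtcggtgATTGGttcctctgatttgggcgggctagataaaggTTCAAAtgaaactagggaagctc
Kif11 (chr19:37376262-37376381, plus strand): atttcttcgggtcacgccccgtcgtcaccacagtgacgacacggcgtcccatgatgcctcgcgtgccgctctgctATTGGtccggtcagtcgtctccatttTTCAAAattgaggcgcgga
Cdk1 (chr10:69352913-69353032, minus strand): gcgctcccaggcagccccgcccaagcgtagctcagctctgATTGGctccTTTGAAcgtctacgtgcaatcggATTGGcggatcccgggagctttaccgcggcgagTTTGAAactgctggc

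The homology region letters begin 30 bases before the start in Prc1, 23 in Top2a and 19 in Kif11, and 71 and 15 in Cdk1. Prc1 and Kif11 hold 1 CCAAT box in the stretch shown, Cdk1 holds 2 and Top2a holds 3. Over the 250 bases before the start, on both strands, TTTGAA was found in 8 of the 26 genes of the set that have a promoter entry (30.8%) and in 18.3% of all 27025 genes with an entry. CCAAT was found in 21 of 26 (80.8%), against 37.5% of all genes. The E2F letters TTTCCCGC, TTTCGCGC, TTTGCCGC or TTTGGCGC were found in 4 of 26 (15.4%), against 2.16%. Neither Birc5 nor Nusap1 held any of these letters in its window, and Bub1 held CCAAT alone.

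Further genes of the same pathways, none of them among the 33, were tested in limma as well, and 0 of 153 passed without or with the pairing, beside 0% and 0.174% of all probe sets. An unadjusted p under 0.05 was found in 9 of 153 without the pairing and in 23 of 153 with it, beside 5.62% and 16.2% of all probe sets. Of 42 other replication factors 0 passed, 25 were higher and 17 lower in DKO, and their median difference was 0.040. The smallest unadjusted p-values were those of Orc6, an origin recognition subunit (0.28), Mcm6, a helicase subunit (-1.07), Mcm8, an MCM relative that acts in recombination (0.21), and Rfc1, a subunit of the clamp loader (0.23), with adjusted p = 0.861 for each.

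Mcm6 was the exception in size. It read 6.68, 8.17 and 7.98 in DKO, against 8.90, 8.63 and 8.52 in ApoE-KO, so DKO replicate 1 was far below the rest. In limma the 95% interval was -1.93 to -0.21 without the pairing (adjusted p = 0.861) and -1.83 to -0.31 with it (adjusted p = 0.190). The other subunits of the same helicase, Mcm2, Mcm3, Mcm4, Mcm5 and Mcm7, lay between -0.05 and 0.14. Without DKO replicate 1 the Mcm6 difference was -0.60. Mcm6 lies on chromosome 1, as does Adora1.

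Of 21 E2F, Rb and DREAM regulators 0 passed, and 11 were higher and 10 lower in DKO (median 0.015). Tfdp1, the usual partner of E2F factors, read 9.78, 9.64 and 9.75 in DKO, against 9.92, 10.00 and 10.03 in ApoE-KO, so the groups did not overlap (difference -0.26, 95% interval -0.45 to -0.06, adjusted p = 0.861). Tfdp1, like Cdkn1b below, has 2 probe sets that name it alone. The one with the higher mean is given, and the other is not reported. E2f1, an activator of S phase genes, had a difference of -0.29, the atypical repressor E2f7 one of -0.18, and Tfdp2, the relative of Tfdp1, one of 0.17. Over the list the groups did not overlap in 5 of 21 genes, against 12.0% of all probe sets.

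Of 16 G1 cyclins, kinases and inhibitors 0 passed, and 9 were higher and 7 lower (median 0.0067). The inhibitor genes Cdkn2c (p18) and Cdkn1b (p27) had differences of -0.24 and 0.18, Pkmyt1, a kinase that restrains Cdk1, had -0.14, and Cdk2, the partner of cyclin E, had 0.099. Of 57 other mitotic factors 0 passed, and 34 were higher and 23 lower (median 0.021). The condensin gene Ncapg2 (0.23), Shcbp1 (0.21), the mitotic kinase gene Pbk (0.20) and the checkpoint gene Trip13 (0.19) had the smallest unadjusted p-values, with adjusted p = 0.862 for each.

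Of 17 p53 target genes, the family to which the unreported Cdkn1a belongs, 0 passed, and 7 were higher and 10 lower (median -0.025). The groups did not overlap in 4 of the 17, against 12.0% of all probe sets. In limma with the pairing 6 of 17 had an unadjusted p under 0.05, against 16.2%. Phlda3, an inhibitor of Akt signalling, read 10.12, 9.92 and 10.05 in DKO, against 10.58, 10.46 and 10.24 in ApoE-KO. Sesn1, a stress-induced sestrin, read 11.09, 10.99 and 10.97 in DKO, against 10.81, 10.74 and 10.67 in ApoE-KO. These differences of -0.40 and 0.27 did not pass (adjusted p = 0.861 each, and 0.0967 and 0.0885 with the pairing). Trp53inp1, a p53-induced stress protein, and Btg2, an antiproliferative gene, had differences of 0.30 and 0.21. Phlda3 and Btg2 lie on chromosome 1, as do Mcm6 and Adora1, and the part of this location in their differences was not tested.

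**Figure D4:**
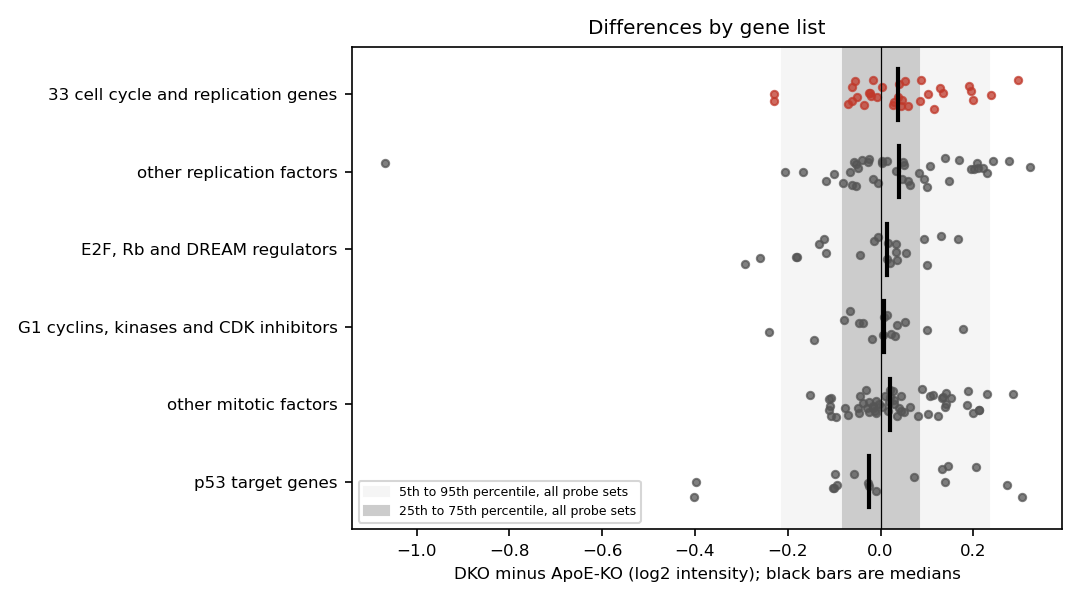
DKO minus ApoE-KO in log2 intensity (x axis) for the 33 genes (red) and for 5 further lists (grey), 1 point per gene with its vertical position jittered and a black bar at each list's median; shading gives the percentiles over all probe sets. All 6 medians lie between -0.025 and 0.040, and the single point near -1.07 is Mcm6.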

How the data were processed

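RNA of 6 aortas, 3 DKO and 3 ApoE-KO, was measured on Affymetrix whole-transcript arrays, 1 per sample. The authors deposited log2 intensities of 25254 probe sets. Per the submitters' processing notes RMA and Partek were used with build mm9, and a batch correction is neither named nor denied there. The study text does state an array batch as a factor of its own tests, but no label gives the batch of an array. Whether the replicate numbers follow that batch is not known. Medians per array were 8.01 to 8.02 and arrays correlated at 0.983 to 0.995, none being a copy. The number of arrays limits the precision: exact permutation of 3 and 3 arrays gives no p under 0.1.

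The platform annotation named the probe sets (21496 name 1 gene), and promoters and names came from RefSeq tables of GRCm38.p6. All probe sets were fitted with limma 3.58.1 in R 4.3.3 (trended eBayes) for DKO minus ApoE-KO, two-sided, Benjamini-Hochberg at 0.05, with no filter on low values. The calls were tested on simulated data, where recovery was required only for changes larger than any difference among the 33 genes. That test does not show whether differences as small as theirs would be called. No label says what a replicate number shares. Deviations of same-numbered arrays from their group means correlated at 0.60, 0.50 and 0.64 over all probe sets, so the numbers were taken as pairs, and values with the number as a block stand beside results. Over the 33 genes alone the correlations for numbers 1 to 3 were 0.74, 0.12 and 0.60, so the pairing is weak for number 2 there.

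The genes and lists were chosen with earlier results of these data known. Given in full are, per role, the 2 genes with the largest absolute difference, with Mki67, Top2a, Ccnd1 and all genes without overlap; Cdk1 and Kif11 were added for their promoters. Of other lists, 4 genes with the smallest unadjusted p are named. Alternatives were the block, each array or both replicate 3 arrays left out, other normalization, a filter at the 40th percentile, other eBayes settings and averaged probe sets.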

Additional observations from a re-analysis of the deposited data

How the results depend on the processing

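Over all probe sets, limma passed 0 of 25254 without the pairing (1419 at an unadjusted p under 0.05), 44 with the replicate number as a block, and 0 to 8 with 1 array left out, the 8 being without DKO replicate 3. None of the 33 cell cycle genes passed under any of the 14 alternatives run, so the replicate block changed no call among them, and the smallest adjusted p of a gene given in full was 0.187. Their count without overlap was 3 to 6 of 33 with 1 array left out, beside 18.9% to 29.0% of all probe sets. It was 5 of 33 without both replicate 3 arrays, beside 32.2%. Among the 13 genes above the 40th percentile of the mean it was 0, beside 12.1% of the probe sets above it. The median difference of the 33 genes was -0.013 to 0.077 with 1 array left out. The block, the eBayes settings and the filter do not change a difference, so they could not turn a sign. Nor could leaving out 1 array for Birc5 and Bub1, whose groups do not overlap. Of the 14 genes given in full other than Cdk1 and Kif11, 9 kept their sign in each alternative that gave a value, and the filter gave none for 8 of the 14. With 1 array left out, 7 of these differences ranged from 0.025 to 0.36 for Pcna, 0.044 to 0.35 for Prc1, 0.085 to 0.32 for Rrm1, 0.17 to 0.43 for Nusap1, 0.087 to 0.20 for Cenpe, -0.39 to -0.12 for Ccnd1 and 0.10 to 0.18 for Mcm7. The other 5 ranged from -0.11 to 0.021 for Ccne1 (positive without ApoE-KO replicate 1), from -0.0098 to 0.24 for Mcm4 (negative without ApoE-KO replicate 3), from -0.0055 to 0.12 for Mki67 (negative without DKO replicate 2), from -0.13 to 0.12 for Top2a (positive without DKO replicate 3 or ApoE-KO replicate 1) and from -0.043 to 0.19 for Kif20a (negative without ApoE-KO replicate 3). Top2a was 0.027 after renewed quantile normalization, and Kif20a was -0.050 without both replicate 3 arrays. An incomplete pair puts levels shared by a number into these unpaired differences. With low levels and 3 arrays a group, the median half-width of the intervals was 0.24.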
